A study of Mus musculus with 4 samples.

Results

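The Notch genes described here were 4 receptors (Notch1, Notch2, Notch3 and Notch4), 3 ligands (Jag1, Jag2 and Dll1) and 3 transcriptional targets (Hes1, Hey1 and Heyl), picked by name as 10 rows of a table of 32230 gene symbols. All 10 were listed with a value above 0 in at least 1 library. They were measured by RNA sequencing of mouse embryonic fibroblasts taken from male homozygous 4F2A embryos at mid-gestation, whose cells express Oct4, Sox2, Klf4 and c-Myc from a cassette switched on by doxycycline. Every library came from cells given 2 µg/mL doxycycline for 48 h and harvested on day 2, so the cassette was induced in both groups. The CX-5461 group (2 libraries) received CX-5461, an inhibitor of RNA polymerase I, for 1 h on day 0, and the DMSO group (2 libraries) received the vehicle for the same 1 h. Libraries of each group are numbered 2 and 3. The comparison asked which transcripts differed on day 2 after brief CX-5461 exposure at the onset of reprogramming.

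Notch receptors are single-pass membrane proteins that bind ligands of the Jagged and Delta-like families on neighbouring cells. Ligand binding exposes the receptor to cleavage by an ADAM protease and then by gamma-secretase, which frees the intracellular domain to enter the nucleus and join the DNA-binding protein RBPJ and a Mastermind coactivator. HES and HEY genes, which encode basic helix-loop-helix repressors, are the classical targets, and in fibroblast and mesenchymal cultures the pathway is known for setting differentiation choices. Messenger RNA levels were measured here, and neither receptor cleavage nor protein was.

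Levels are in TPM, transcripts per 1000000, a unit that takes gene length into account and so allows genes to be compared. Each difference is the mean log2(TPM + 1) with CX-5461 minus that with DMSO, and for low genes it is smaller than the change in TPM itself. Genes averaging 1 TPM or more, 14621 in number, were fitted together with limma, and one was said to rise or fall where its adjusted p was below 0.05. The libraries held about 35576806 and 35307444 reads with CX-5461 and 35515632 and 37615081 reads with DMSO, as recovered from the TPM. Mitochondrial genes took 9.20% and 9.24% of TPM with CX-5461 and 9.96% and 15.3% with DMSO, so DMSO replicate 3 stood apart in composition. The 12 fibroblast markers were all above 1 TPM. Their summed level was 10449 to 10976 TPM in CX-5461 libraries and 11599 to 14371 TPM in DMSO libraries. Of these 12 markers 6 (50%) fell, against 8.21% of all tested genes. The other 6 did not pass. Among them Postn (0.06), S100a4 (0.29) and Twist1 (0.28) were higher with CX-5461, and Col1a1 (-0.21), Col1a2 (-0.50) and Vim (-0.31) were lower.

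Of the 10 genes, 8 were tested, and Notch4 and Dll1 lay below the filter. Notch3 and Jag2 rose, Heyl fell, and Notch1, Notch2, Jag1, Hes1 and Hey1 did not pass. That made 2 higher and 1 lower of 8, in a comparison in which 19.8% of all tested genes passed, 11.6% higher (1694) and 8.21% lower (1201). With TPM rescaled without mitochondrial and the 20 highest genes that split was 1568 higher and 1762 lower, and the members' calls were the same. The members are too few for their count to be read as a property of the group. The median difference of the 8 was 0.26, against 0.07 over all genes tested. In 7 of the 8 tested genes the CX-5461 libraries lay wholly to one side of the DMSO libraries, and 64.5% of all tested genes did likewise, 38.2% higher and 26.3% lower.

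The promoter of Notch3, the receptor that rose, is shown with that of Notch1, a receptor that did not pass, so that the regions just upstream can be compared. Each is the 250 bases before the RefSeq start (GRCm38.p6, the assembly of mm10), 5′ to 3′ on the gene's strand. Capitals mark matches on either strand to CACGNG, the kind of site HES and HEY proteins bind, and to GGGCGG, the GC box.
Notch3 promoter, chr17:32166891-32167140, minus strand: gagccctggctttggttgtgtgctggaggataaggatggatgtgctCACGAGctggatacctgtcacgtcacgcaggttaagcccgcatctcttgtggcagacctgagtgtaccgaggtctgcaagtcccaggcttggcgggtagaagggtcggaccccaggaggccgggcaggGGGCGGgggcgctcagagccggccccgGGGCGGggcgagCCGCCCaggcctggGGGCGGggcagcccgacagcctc
Notch1 promoter, chr2:26503823-26504072, minus strand: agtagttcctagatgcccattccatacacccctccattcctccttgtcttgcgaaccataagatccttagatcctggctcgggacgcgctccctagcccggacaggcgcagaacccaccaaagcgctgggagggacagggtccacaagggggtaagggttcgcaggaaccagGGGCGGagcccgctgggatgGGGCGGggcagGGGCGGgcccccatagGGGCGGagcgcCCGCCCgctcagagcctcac
Notch3 had 4 GC boxes within 76 bases of the start and 1 CACGNG match 204 bases before it. Notch1 had 5 GC boxes within 78 bases of the start and no CACGNG match in this window, which lies within the GENCODE M21 span of the gene, since longer Notch1 transcripts start further upstream. Jag2, whose RefSeq window lies inside the first exon of the GENCODE M21 annotation and is not printed, had 5 GC boxes (the pair at 80 and 76 bases before the start overlap) and no CACGNG match. CACGNG matches also stood before receptors and ligands that did not pass. Notch2 had 1 such match and 5 GC boxes, and Jag1 had 2 such matches and 0 GC boxes. Of the untested members, Dll1 had 1 CACGNG match in each of its windows and Notch4 had 0. Over all 32851 promoter windows of that length, 32.7% held a GC box and 23.5% a CACGNG match. The core bound by RBPJ, TGGGAA, was searched on both strands too and stood in 21.6% of all windows. It stood in none of the 8 windows of the 7 members that had an entry, all of them receptors or ligands. The targets Hes1, Hey1 and Heyl had no entry, so their promoters were not searched. The GC content was 68.8% for Notch3, 66.0% for Notch1 and 87.2% for Jag2, against a median of 52.4% over all windows. These matches describe letters and do not show that a factor binds there.

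Notch3 was the receptor that changed most. It encodes a receptor best known from pericytes and vascular smooth muscle (chromosome 17, 32120820 to 32166852, mm10). Its level was 91.7 and 104 TPM in CX-5461 replicates 2 and 3, against 25.0 and 20.8 TPM in DMSO replicates 2 and 3. Both CX-5461 libraries lay far above both DMSO libraries. The means were 98.1 ± 8.96 TPM with CX-5461 and 22.9 ± 3.0 TPM with DMSO (SD, n = 2 each), a ratio of 4.28. On the log2(TPM + 1) scale the difference was 2.05 (SE 0.12, limma adjusted p = 0.000690), which ranked 42 from the highest of 14621. These levels rested on about 7618 and 8515 reads in the CX-5461 libraries and 2081 and 1944 reads in the DMSO libraries. In bulk RNA a change in the share of cells that express a gene and a change in RNA per cell cannot be told apart. Over all 16 alternative settings the Notch3 difference ran from 1.89 to 2.18. In the 12 that kept every library its limma adjusted p was 1.17e-10 to 0.00559. The thresholds of 0.01 and 0.1 reuse the main fit, so its adjusted p fixed their outcome.

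Notch2, a broadly expressed receptor (chromosome 3, 98013527 to 98150361), was the main receptor of the DMSO libraries. It stood at 51.1 and 50.6 TPM in the CX-5461 libraries, against 56.1 and 52.1 TPM in the DMSO libraries. The groups lay apart by under 1 TPM. The difference of -0.08 did not pass (adjusted p = 0.533), with a 95% interval of -0.30 to 0.13. Notch1, the receptor best known from T cell development (chromosome 2, 26457903 to 26516663), stood at 18.8 and 19.9 TPM with CX-5461, against 18.0 and 16.0 TPM with DMSO. Its difference of 0.18 did not pass either (adjusted p = 0.305, interval -0.10 to 0.46). For both receptors the interval lay wholly below that of Notch3, which ran from 1.75 to 2.36. Notch4, a receptor known from endothelium (chromosome 17, 34564268 to 34588503), was scarce, at 0.411 and 0.271 TPM with CX-5461, against 0.905 and 0.783 TPM with DMSO. Those values stood for 34 and 22 reads in the CX-5461 libraries and 75 and 73 reads in the DMSO libraries. Tested without the filter, Notch4 differed by -0.46 and did not pass (adjusted p = 0.164), and a limma voom fit on the recovered reads gave -1.37 (adjusted p = 0.0321).

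**Figure D1:**
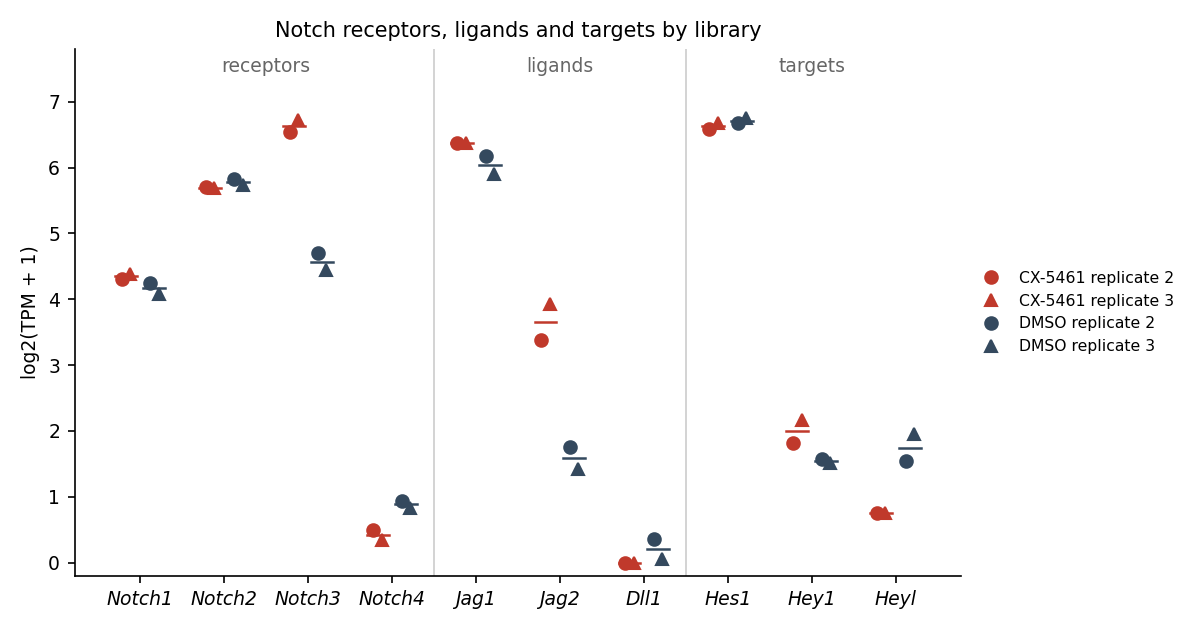
Level of each gene in each library as log2(TPM + 1), with CX-5461 in red, DMSO in dark blue, a circle for replicate 2, a triangle for replicate 3 and a short line for the group mean. Notch3 and Jag2 stand about 2 units higher in the CX-5461 libraries, Heyl about 1 unit lower, and Hes1 overlaps between the groups.

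The receptors' order differed between the groups. Summed over the 4 receptors, TPM came to 162 and 175 in the CX-5461 libraries, against 99.98 and 89.6 in the DMSO libraries. Notch3 made up 56.6% and 59.6% of that sum with CX-5461, against 25.0% and 23.2% with DMSO. Notch2 held 31.6% and 28.9% with CX-5461 and 56.1% and 58.1% with DMSO. The ratio of Notch3 to Notch2 within a library was 1.79 and 2.06 with CX-5461, against 0.446 and 0.399 with DMSO. Such a ratio does not depend on how a library is scaled. An exact two-sided permutation test of 2 against 2 libraries cannot go below p = 0.333, so no p is given for it.

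**Figure D2:**
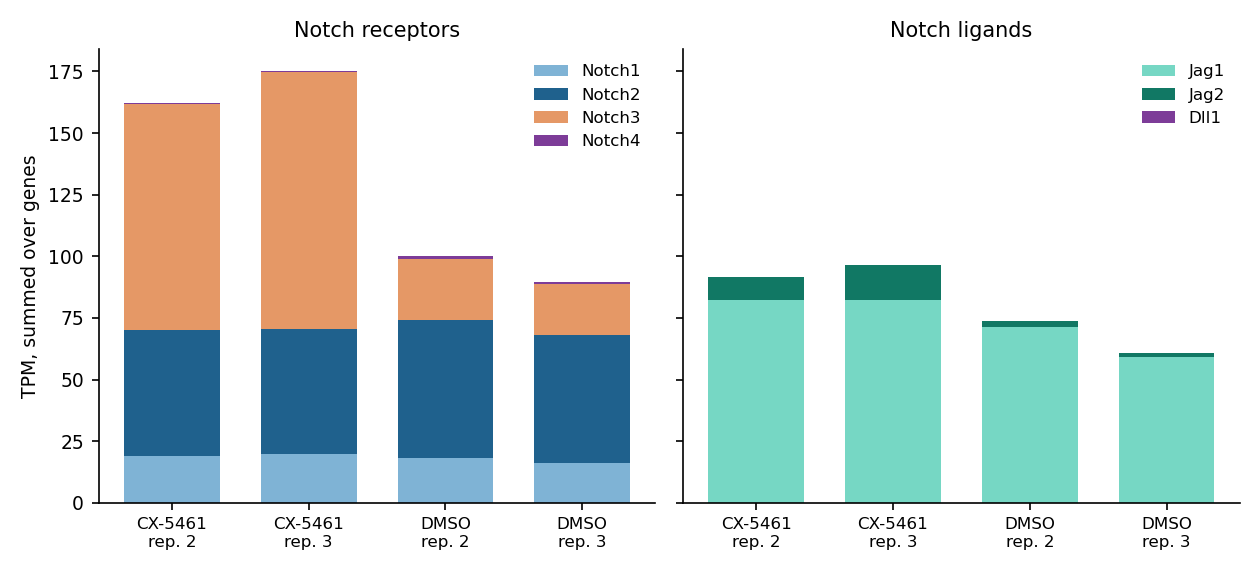
Stacked TPM of the 4 receptors (left) and the 3 ligands (right) in each library, on an axis that starts at 0. The receptor sum is 162 and 175 TPM in the CX-5461 libraries and 99.98 and 89.6 TPM in the DMSO libraries, and Notch3 is the largest part with CX-5461 and Notch2 with DMSO.

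Among the ligands, Jag2 rose while Jag1 stayed the most abundant. Jag2 encodes a Jagged ligand (chromosome 12, 112907819 to 112929776). It stood at 9.37 and 14.2 TPM in CX-5461 replicates 2 and 3, against 2.39 and 1.66 TPM in DMSO replicates 2 and 3. The CX-5461 libraries differed among themselves, yet the lower of them was well above the higher DMSO library. The means were 11.8 ± 3.41 TPM with CX-5461 and 2.03 ± 0.512 TPM with DMSO (SD, n = 2 each), a ratio of 5.82. The log2 difference was 2.06 (SE 0.24, limma adjusted p = 0.00449), rank 41 from the highest, next to Notch3. It rested on 670 and 997 reads with CX-5461 and 171 and 134 reads with DMSO. In the 12 alternatives that kept every library the limma adjusted p was 4.33e-06 to 0.0180. The difference was 1.24 with a pseudocount of 5 and 2.48 with the recovered reads. With 1 library left out it ran from 1.79 to 2.34. Jag2 reached the filter of 5 TPM only through its level in the CX-5461 libraries.

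Jag1, the other Jagged ligand (chromosome 2, 137081456 to 137116644), stood at 82.2 and 82.2 TPM in the CX-5461 libraries, against 71.3 and 59.0 TPM in the DMSO libraries. The groups did not overlap, but the DMSO pair was spread. The difference of 0.34 (interval 0.06 to 0.62) did not pass (limma adjusted p = 0.0893). It passed without DMSO replicate 2 (0.47, adjusted p = 0.0256), by voom on the recovered reads (0.29, adjusted p = 0.0191) and at a threshold of 0.1, and the adjusted p ran from 0.0191 to 0.343 over the 16 alternatives. Jag1 exceeded Jag2 by 8.77 and 5.79 times in the CX-5461 libraries, against 29.8 and 35.5 times in the DMSO libraries. Jag2 thus made up 10.2% and 14.7% of the 3 ligands' sum with CX-5461, against 3.23% and 2.74% with DMSO. Dll1, a Delta-like ligand (chromosome 17, 15367354 to 15376872), was listed at 0 in both CX-5461 libraries, against 0.277 and 0.0410 TPM in the DMSO libraries. The DMSO values stood for 12 and 2 reads. A count of 0 allows up to 0.0693 and 0.0705 TPM (3 reads per library, counting error only), above the level of DMSO replicate 3 and below that of DMSO replicate 2. With the DMSO libraries so far apart and few reads, the Dll1 difference did not pass (-0.21 without the filter, limma adjusted p = 0.395).

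Of the 3 targets, Heyl fell and Hes1 and Hey1 did not pass. Hes1, the repressor most often read as a Notch target and also driven by other pathways (chromosome 16, 30064384 to 30067796), stood at 94.7 and 102 TPM with CX-5461, against 102 and 107 TPM with DMSO. The groups overlapped, and the difference of -0.08 did not pass (adjusted p = 0.534, interval -0.30 to 0.13). Over the 16 alternatives the Hes1 difference ran from -0.19 to -0.03. Hey1, a HEY repressor known from vessels and bone (chromosome 3, 8663359 to 8667256), stood at 2.54 and 3.49 TPM with CX-5461, against 1.97 and 1.85 TPM with DMSO. These were 85 and 115 reads in the CX-5461 libraries and 66 and 70 reads in the DMSO libraries. The Hey1 difference of 0.45 did not pass (adjusted p = 0.196, interval -0.08 to 0.99).

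Heyl, another HEY repressor (chromosome 4, 123233556 to 123249875), was the gene that fell. Its level was 0.686 and 0.679 TPM in CX-5461 replicates 2 and 3, against 1.90 and 2.88 TPM in DMSO replicates 2 and 3. Reads numbered 36 and 35 in the CX-5461 libraries and 100 and 170 in the DMSO libraries, and no library of one group reached the other. The means were 0.682 ± 0.00492 TPM with CX-5461 and 2.39 ± 0.688 TPM with DMSO (SD, n = 2 each), a ratio of 0.286. The log2 difference was -0.995 (SE 0.26, limma adjusted p = 0.0476), rank 531 from the lowest of 14621. Heyl reached the filter of 1 TPM through its level in the DMSO libraries alone, and without the filter its adjusted p was 0.0679. This call was close to the threshold: it ended whichever library was left out (differences -1.20 to -0.79, adjusted p 0.0718 to 0.203) and with a pseudocount of 0.1 or 5 (-1.64 and -0.38, adjusted p = 0.0509 and 0.0530). On the recovered reads Heyl differed by -1.83 (adjusted p = 0.00337). Hes1 exceeded Heyl by 138 and 150.2 times in the CX-5461 libraries, against 53.4 and 37.2 times in the DMSO libraries.

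**Figure D3:**
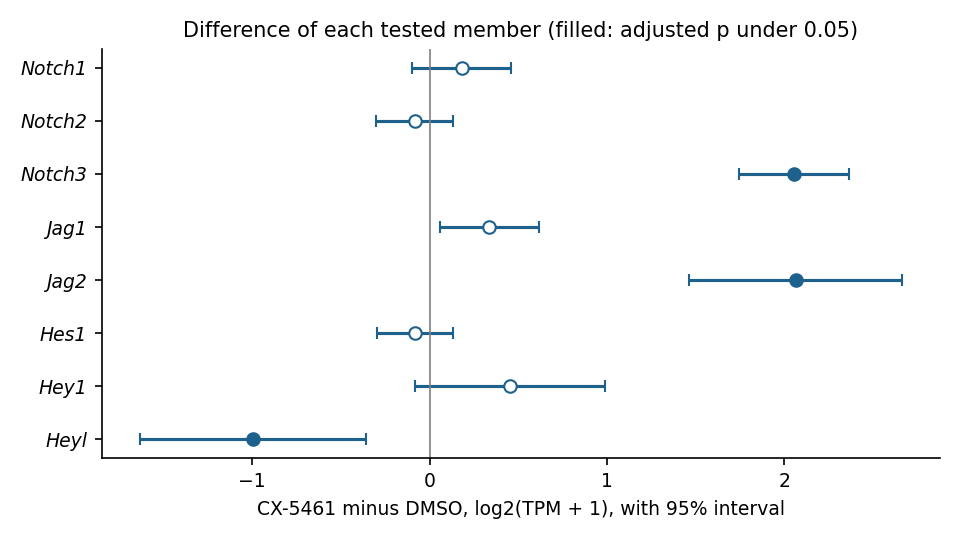
Difference of each tested gene (CX-5461 minus DMSO, log2(TPM + 1) units) with its 95% interval from limma, filled where the adjusted p is under 0.05. Notch3 (2.05) and Jag2 (2.06) lie far to the right and Heyl (-0.995) to the left, and 4 of the 5 open points have an interval that spans 0, the other being Jag1.

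The order of all 10 levels showed what the groups shared. With CX-5461, Hes1 (mean 98.4 TPM) and Notch3 (98.1 TPM) headed the list and their libraries overlapped. Below them came Jag1 (82.2 TPM), Notch2 (50.9 TPM), Notch1 (19.4 TPM), Jag2 (11.8 TPM), Hey1 (3.02 TPM), Heyl (0.682 TPM), Notch4 (0.341 TPM) and Dll1, each apart from its neighbour in both libraries. With DMSO the order was Hes1 (104 TPM), Jag1 (65.1 TPM), Notch2 (54.1 TPM), Notch3 (22.9 TPM) and Notch1 (16.98 TPM). Heyl (2.39 TPM), Jag2 (2.03 TPM) and Hey1 (1.91 TPM) followed with overlapping libraries, ahead of Notch4 (0.844 TPM) and Dll1 (0.159 TPM). Hes1, Jag1 and Notch2 were thus abundant in both groups, and Notch4 and Dll1 were the scarcest in both.

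The rest of the pathway was described from 6 lists with 70 genes, of which 59 were tested. Of these, 6 rose, 2 fell and 51 did not pass, a share of 13.6% against the 19.8% of all tested genes, and the median difference was 0.08. On the log2(TPM + 1) scale none of the 59 matched the size of Notch3 or Jag2: the differences ran from -0.64 to 0.97. The other 11 genes lay below the filter, and this range does not cover them. Among 5 tested ligands and soluble modulators, Dlk1, an imprinted Delta-like protein that lacks the usual receptor-binding domain, rose to 43.2 ± 0.794 TPM with CX-5461, against 29.4 ± 1.56 TPM with DMSO (difference 0.54, adjusted p = 0.0142). Dll3 and Dll4, both Delta-like ligands, were below the filter. Among 10 genes of receptor cleavage, Aph1b, a gamma-secretase subunit, rose to 19.2 ± 0.00841 TPM with CX-5461, against 13.8 ± 0.765 TPM with DMSO (0.45, adjusted p = 0.0365), and 9 did not pass.

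Of 6 tested genes of receptor glycosylation, 1 rose and 1 fell. Poglut1, which adds O-glucose to Notch, stood at 81.2 ± 4.00 TPM with CX-5461 and 51.0 ± 0.491 TPM with DMSO (0.66, adjusted p = 0.00602). Poglut3, a related enzyme, fell to 59.0 ± 3.81 TPM with CX-5461, against 75.6 ± 0.928 TPM with DMSO (-0.35, adjusted p = 0.0440). Of 14 tested genes of endocytosis, turnover and inhibition, 2 rose and 0 fell. At an unadjusted limma p under 0.05, 4 were higher and 1 lower. By voom, which tested 17 genes of this list, 4 were higher and 2 lower. Neurl2, a neuralized-like ubiquitin ligase adaptor, rose to 38.0 ± 3.26 TPM with CX-5461, against 18.9 ± 1.32 TPM with DMSO (0.97, adjusted p = 0.00416). Fbxw7, the ubiquitin ligase subunit that marks the cleaved Notch domain and other proteins for degradation, rose to 27.9 ± 2.48 TPM with CX-5461, against 17.02 ± 0.286 TPM with DMSO (0.68, adjusted p = 0.0115).

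Of 21 tested genes of the nuclear complex and corepressors, 1 rose and 1 fell, 9.52% against 19.8% of all tested genes. Their differences ran from -0.39 to 0.36. At an unadjusted limma p under 0.05, 3 of the 21 were higher and 1 lower, and by voom 1 was higher and 2 lower. The 19 that did not pass included Rbpj (0.01), Maml1 (-0.09), Maml2 (-0.07) and Maml3 (0.21). Kat2a, an acetyltransferase, fell to 61.9 ± 2.34 TPM with CX-5461, against 81.3 ± 4.87 TPM with DMSO (-0.39, adjusted p = 0.0350), and the corepressor Tle1 rose to 25.0 ± 0.353 TPM with CX-5461, against 19.3 ± 0.0530 TPM with DMSO (0.36, adjusted p = 0.0490). Of the other HES, HEY and direct target genes, 3 were tested by limma and 0 passed, with 1 higher and 1 lower at an unadjusted p under 0.05 and 1 higher and 1 lower by voom. Hes6, a HES relative that opposes Hes1, stood at 49.2 ± 1.22 TPM with CX-5461 and 31.7 ± 8.08 TPM with DMSO (0.64, adjusted p = 0.0575), Hey2 differed by -0.64 (adjusted p = 0.121), and Nrarp, a feedback inhibitor of Notch, by -0.62 (adjusted p = 0.164). Hey2 was named after its value was seen. All 8 of these calls ended without CX-5461 replicate 3, and 7 of them, all but Neurl2, without CX-5461 replicate 2.

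**Figure D4:**
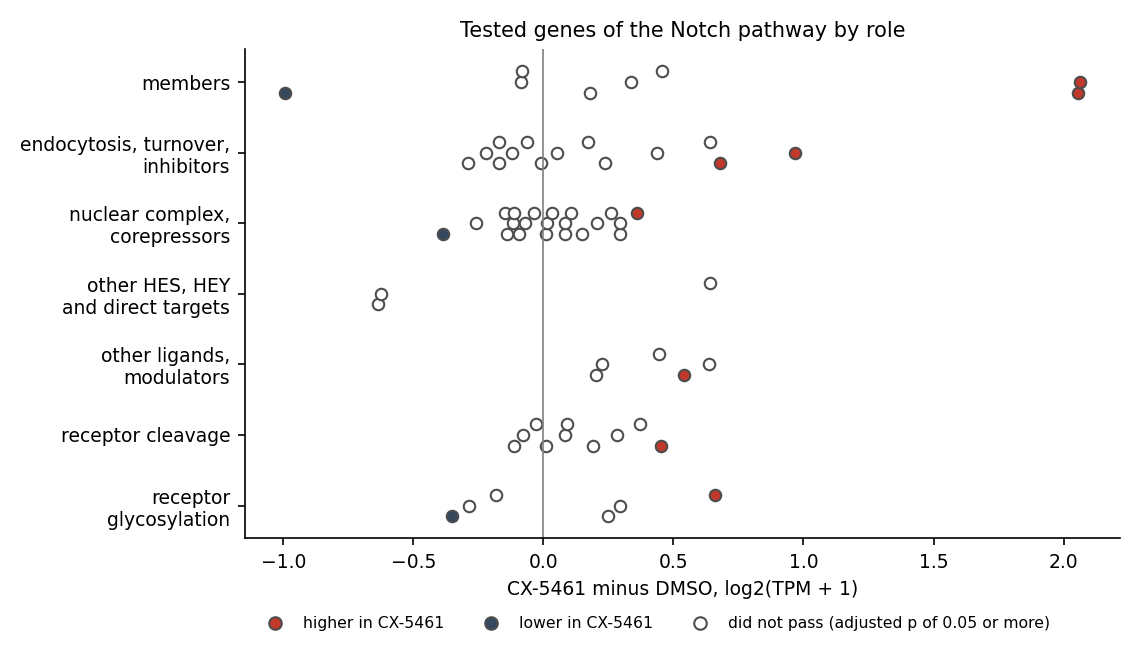
Difference of each tested gene of the Notch pathway (CX-5461 minus DMSO, in log2(TPM + 1) units) in rows by role, with red for higher, dark blue for lower and open circles for genes that did not pass. Notch3 and Jag2 stand alone near 2 in the top row, while the 59 genes of the other rows run from -0.64 to 0.97.

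Markers of other cell types that express these genes were measured in the same libraries. For the counts below, 11.6% of all tested genes rose and 8.21% fell. Of 11 mural markers, which mark the pericytes and smooth muscle where Notch3 and Heyl are prominent, 9 were tested. Of these, 2 rose (Mcam and Des) and 1 fell (Cspg4). At an unadjusted limma p under 0.05, 2 were higher and 2 lower. By voom, which tested 10 of the list, 2 were higher and 4 lower. The summed level of the 11 was 3229 to 3834 TPM in CX-5461 libraries, against 3899 to 4074 TPM in DMSO libraries. Most of it was Acta2 and Tagln, which did not pass. The part of mural cells in the Notch3 and Heyl results was not tested. Of 10 endothelial markers 4 were tested, with Kdr higher and Tek lower. Their sum was 62.7 to 65.9 TPM with CX-5461 and 58.2 to 59.8 TPM with DMSO, and Pecam1 and Cdh5 stayed under 1 TPM in every library. Of 11 keratinocyte and epithelial markers 7 were tested, and 2 rose, Grhl3 and Perp. Their sum was 670 to 842 TPM with CX-5461 and 269 to 287 TPM with DMSO, most of it Perp. The other 5 did not pass: Krt14 averaged 14.6 ± 5.39 TPM with CX-5461 and 26.7 ± 0.344 TPM with DMSO (-0.87, adjusted p = 0.0641), Cdh1 differed by -0.59 and Krt18 by -0.15, and Krt5 by 0.57 and Krt8 by 0.43. At an unadjusted p under 0.05, 3 of the list were higher and 1 lower, and by voom 2 were higher and 2 lower. Trp63, Krt15 and Epcam stayed under 1 TPM in every library. Epithelia express Jag2, and their part in the Jag2 result was not tested. Of 8 myeloid and lymphoid markers 5 were tested and 2 rose (Lyz2 and Adgre1), with Cd3e at 0, and sums of 840 to 937 TPM with CX-5461 and 576 to 579 TPM with DMSO. Of 10 neural and glial markers 5 were tested by limma and 0 passed, with 1 lower at an unadjusted p under 0.05 and 3 lower by voom, Neurog2 was at 0, and the sums were 324 to 350.1 TPM with CX-5461 and 362 to 379 TPM with DMSO.

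Genes with a like pattern over the 4 libraries were found by the Euclidean distance of log2(TPM + 1) values centred on each gene's mean. Nearest to Notch3 were Angptl4 (distance 0.0607), Sbsn (0.0715) and Icam1 (0.0860). Nearest to Jag2 were H2ac8 (0.222), Icam1 (0.240) and Angptl4 (0.240), and nearest to Heyl were Dpy30 (0.0988), Mexis (0.102) and Tfap4 (0.135). With 4 libraries in 2 groups such a distance mostly records the size of the group difference. On chromosome 17 the antisense gene Gm17276 overlaps Notch3 from 32120820 to 32141843 on the opposite strand. Gm17276 has no deposited value under this symbol, so its level is not known. Notch1 overlaps 0610009E02Rik, at 7.07 to 10.4 TPM. Strand was not stated for the counting, so reads of such pairs cannot be told apart.

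**Figure D5:**
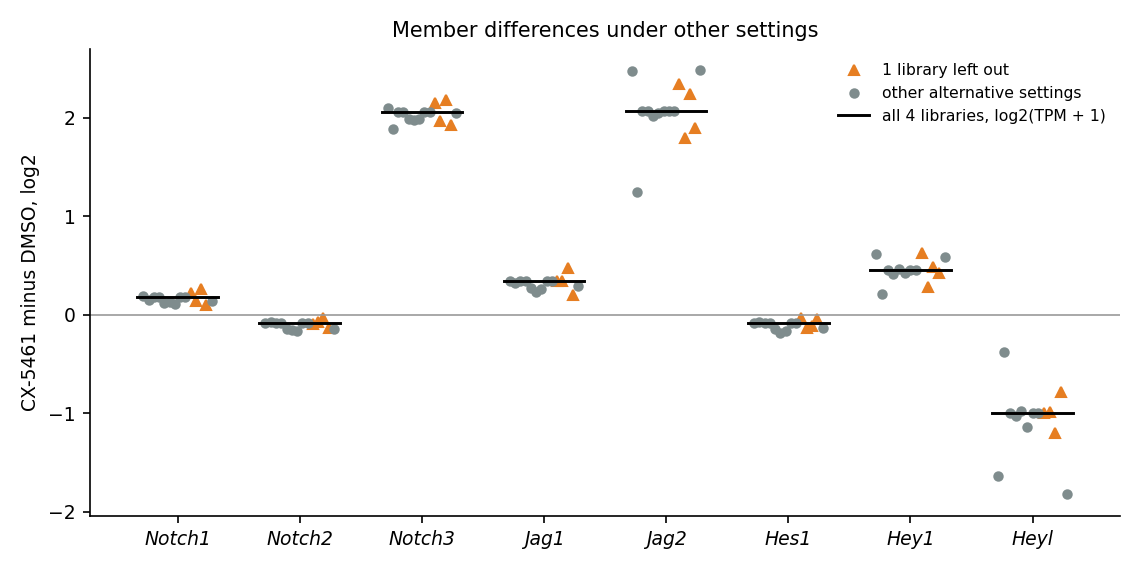
Difference of each tested gene under the settings tried, with a black line for the value from all 4 libraries at log2(TPM + 1), orange triangles for 1 library left out and grey circles for other settings (other thresholds leave the difference as it is and are not drawn). No gene crosses 0, Notch3 stays between 1.89 and 2.18, Jag2 between 1.24 and 2.48, and Heyl spreads from -1.83 to -0.38.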

How the data were processed

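The authors deposited TPM values per gene symbol in 1 table with a column per library, and each column summed to 1000000. Per the labels, poly(T) capture was followed by paired-end sequencing on a NovaSeq instrument, and reads were cleaned on the BMKCloud platform. The genome build was mm10, per the submitters' processing notes, and the sources used here do not name an aligner, counter or annotation. 0 columns of the table went unused. The labels speak of parallel replicates without saying that they were separate cultures, and the p-values therefore rest on sample-to-sample spread that could be technical.

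After a filter on mean TPM (1 or more), limma 3.58.1 under R 4.3.3 was run on log2(TPM + 1) (trend and robust options, no covariate, 2 residual degrees of freedom per gene), adjusted by Benjamini-Hochberg over all 14621. To recover reads, TPM was multiplied by GENCODE M21 exon length and divided by 1 constant per library: 69.5% of 71179 values came within 0.01 of being whole (2% by chance) and 29 of the members' 40 values did. Replicates differed by more than counting noise (chi-square per degree of freedom 8.44 for CX-5461 and 14.6 for DMSO). Promoters came from RefSeq (GRCm38.p6), with 7 of the 10 members matched, all but Hes1, Hey1 and Heyl. The members and lists were chosen with earlier results of these data known. All 10 members were named. From each of the 6 other pathway lists, up to 4 genes that passed with the smallest adjusted p were named, or the 2 with the highest mean where none passed. Hey2, Rbpj, the Maml genes, Dll3, Dll4 and all cell type markers were named outside this rule, after their values were seen.

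Alternatives were a pseudocount of 0.1 or of 5, a 5 TPM filter or none, 3 other scalings, limma without its options, a replicate block, thresholds of 0.01 and 0.1 and each library left out. limma voom on recovered reads (mean of at least 10) was added after the data were seen.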

Additional observations from a re-analysis of the deposited data

How the results depend on the processing

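Notch3 and Jag2 kept their direction under all 16 alternatives and passed under those that kept every library. The thresholds of 0.01 and 0.1 reuse the main fit, so their outcome for these genes was already fixed. At the filter of 5 TPM, Jag2 was tested only through its CX-5461 level. None of the 8 tested members, nor any of the 10 other pathway genes named by the rule, changed sign under an alternative that tested it. Other named genes were not recomputed. The number of members lower was 1, and 0 with a pseudocount of 0.1 or 5, no filter, a filter of 5 TPM (where Heyl was not tested), quantile normalization, the replicate block, a threshold of 0.01 and each library left out (0 to 0), and 2 by voom on recovered reads, which adds Notch4. The number of members higher was 2 to 3 with 1 library left out, and 3 by voom and at a threshold of 0.1, with Jag1 added each time it was 3. Of the other pathway genes, 6 were higher and 2 lower. With no filter 0 were lower, and without limma's options, or with the replicate block, 1 was lower. By voom 10 were higher and 7 lower, at a threshold of 0.01 they were 2 and 0, and at 0.1 there were 13 higher. With 1 library left out, 0 to 7 were higher and 0 to 1 lower. Over all genes, 1694 were higher and 1201 lower. The higher count was 1051 with no filter, 1128 without limma's options, 548 (and 518 lower) at a threshold of 0.01 and 2623 at 0.1, and voom gave 2274 lower. With 1 library left out, 218 to 2067 were higher and 337 to 891 lower, the fewest without CX-5461 replicate 3, and then without CX-5461 replicate 2 (299 and 398) and DMSO replicate 3 (949 higher). Apart from the construction of fewer libraries or genes, the cause was not tested. The median of all genes moved from 0.07 to between -0.01 and 0.11, the highest without DMSO replicate 2.

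Deviations of same-numbered libraries from their group means correlated at r = 0.03 across genes. That value cannot settle whether such libraries shared a culture or batch, and no label says so. The replicate block left 1589 higher and 1100 lower over all genes, with an adjusted p of 0.0566 for Heyl. Where leaving one out gave an arm of 1, that arm took its spread from the other. Heyl, Hey1, Notch4 and Dll1 rest on few reads, which limits their precision. The floors given for Dll1 cover counting error only, and the intervals are limma's, from the spread between libraries.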
